A study of Mus musculus with 16 samples.

Results

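The genes that encode the subunits of the 5 complexes of oxidative phosphorylation, with the assembly factors that share their names, were followed in mouse trabecular osteoblasts (TOs). A gene was taken when its array symbol or current symbol began with Nduf (complex I), Sdha, Sdhb, Sdhc or Sdhd (complex II), Uqcr (complex III), Cox4, Cox5, Cox6, Cox7 or Cox8 (complex IV) or Atp5 (complex V), and when at least 1 of its probes was detected above background on 2 or more arrays. On the array 89 genes with 111 probes met the name rule, and 83 of them with 101 probes were detected, out of 10438 detected genes in all. Complex I had 39 members, complex II 7, complex III 7, complex IV 15 and complex V 15, of which 72 encode subunits and 9 assembly factors, beside Cox7a2l and the pseudogene Ndufs5-ps. Atp5k, Cox7b2, Cox8b, Cox8c, Ndufs1 and Uqcrq were on the array and were not detected, and Sdha and Ndufa4l2 are not analysed here. In 79 members the probe was detected on all 16 arrays. Ndufb11 (12 arrays), Cox6a2 (9), Cox4i2 (7) and Uqcrfs1 (4) were not, and Cox4i2 and Cox6a2 were kept through the conditions in which they were high.

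The cells came from femur and tibia of C57BL/6 embryos 1 day before birth (the labels name both bones). They were Pthrp-/- TOs, which lack the gene for parathyroid hormone-related protein, or Pthrp+/+ TOs, and were grown for 6 days on microcarriers at 0g in a rotating vessel or at 1g, with PTHrP1-36 peptide (10 nM for 2 h each day) or untreated. For each of the 8 conditions 2 arrays (Illumina Mouse Ref-8 v2.0) were hybridised. Levels are log2 intensities after background correction and quantile normalization, and a fold change is the difference of 2 condition means on that scale, given with its standard error (SE, n = 2 arrays per condition).

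Oxidative phosphorylation passes electrons from NADH (complex I) and succinate (complex II) through ubiquinone, complex III and cytochrome c to oxygen at complex IV, and complex V uses the proton gradient built on the way to make ATP. Most subunits are encoded in the nucleus and are made in every cell that respires, but several small subunits of complex IV exist as isoforms with a tissue preference. Cox6a2, Cox7a1 and Cox8b are the heart and skeletal muscle forms, Cox4i2 is the form of lung and of cells that sense oxygen, and Cox6b2 is the testis form, whereas Cox4i1, Cox6a1, Cox6b1, Cox7a2 and Cox8a are the widely expressed forms. In osteoblasts, respiration and aerobic glycolysis both supply ATP, and their balance is known to shift with differentiation.

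Several facts of the whole series stand beside every value. Arrays had median intensities of 60.6 to 70.3 and 12161 to 13560 detected probes, and replicate arrays had correlations of 0.989 to 0.997. Of the osteoblast markers, Sp7, Col1a1, Col1a2, Bglap, Pth1r and Sparc were detected on all 16 arrays, and Dmp1 and Dlx5 on 0. The summed level of 18 macrophage markers was 588 to 823.8 over the Pthrp-/- arrays and 58570 to 97540 over the Pthrp+/+ arrays, and in untreated Pthrp-/- TOs at 1g 13 of the 18 were detected on no array. Their part in the differences below was not tested, and in such bulk RNA fewer cells of a type and less RNA per cell cannot be told apart. Across genes the 0g fold changes of untreated Pthrp-/- TOs and of untreated Pthrp+/+ TOs, which share no array, correlated at -0.36 (treated TOs, -0.26), and 457 of the 595 genes that changed at least 2-fold at 0g in untreated Pthrp+/+ TOs had the opposite sign in Pthrp-/- TOs. The labels were used as deposited, so every gravity value of Pthrp-/- TOs rests on them. Gravity cannot be told apart from the rotating vessel. The labels do not say whether the 2 arrays of a condition came from separate cultures (the methods speak of duplicate experiments), and the spread that enters the p-values is that between these arrays, which may be technical.

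The members varied less over the 8 conditions than other genes did. The range of a member's condition means had a median of 0.40 on the log2 scale, against 0.65 over all detected genes, and it exceeded 1 in 4 of 83 members (4.82%), against 26% of all genes. Among genes of mean level over 9, 0 of 60 members had a range over 1, against 19.1% of 3066 genes. The 4 were isoforms of complex IV with a tissue preference. Cox7a1 (1.90) and Cox6b2 (1.12) were detected on all 16 arrays. Cox6a2 and Cox4i2 passed the filter through the conditions in which they were high and were not detected in others, so their ranges are no exact differences. At the other end stood Atp5g3, 1 of 3 genes for the c subunit of the ATP synthase rotor, with a range of 0.10, Uqcrc2, a core protein of complex III, with 0.16, Cox5b with 0.16 and Sdhc, a membrane anchor of complex II, with 0.17.

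When each member was centred on its mean over the conditions, the median over all members was highest in untreated Pthrp-/- TOs at 1g (0.05 and 0.12 on the 2 arrays) and lowest in untreated Pthrp+/+ TOs at 1g (-0.17 and -0.08). These 2 conditions did not overlap, and the other 6 condition means lay between -0.06 and 0.07. The same 2 conditions were the highest and the lowest for complex I (0.12 in untreated Pthrp-/- TOs at 1g, -0.14 in untreated Pthrp+/+ TOs at 1g), complex II (0.17 and -0.26 in the same order) and complex III (0.13 and -0.10). Of the 7 members of complex II only 3 are subunits. Complex V was highest in treated (0.09) and untreated (0.08) Pthrp-/- TOs at 1g and lowest in untreated Pthrp+/+ TOs at 1g (-0.13). In complex IV no condition mean left the range of -0.09 to 0.06. Over all detected genes the same quantity ran between -0.06 and 0.04. Its extremes fell in the same 2 conditions, untreated Pthrp+/+ TOs at 1g (-0.06) and untreated Pthrp-/- TOs at 1g (0.04). This order was thus not particular to the members.

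**Figure D1:**
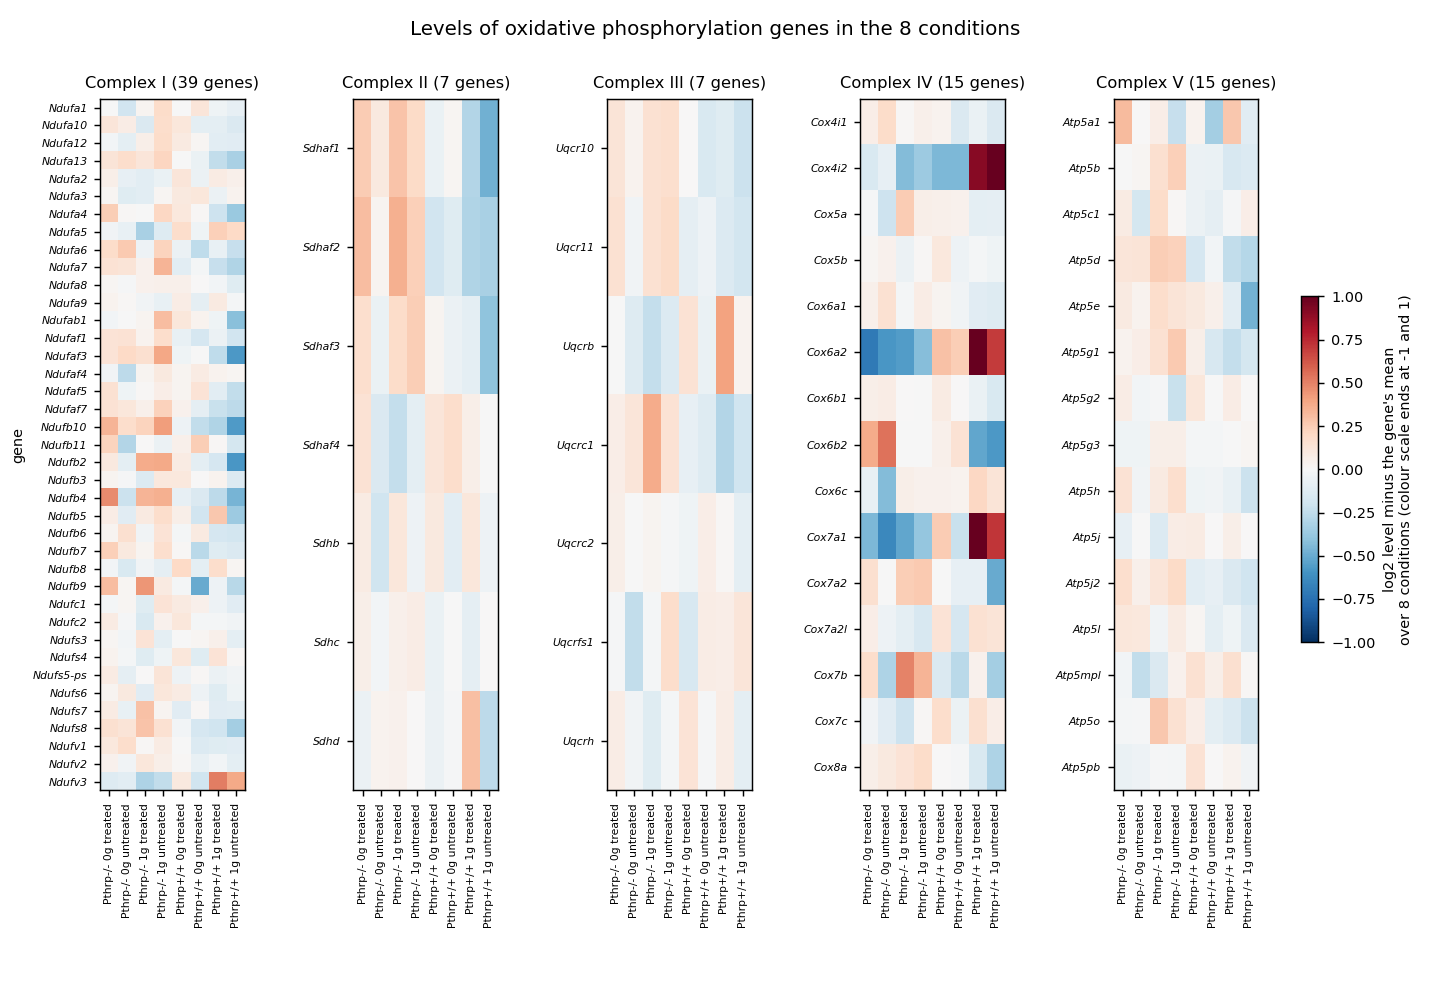
Condition means of the 83 members by complex, as log2 level minus the gene's mean over the 8 conditions (colour, red higher, blue lower, scale ended at -1 and 1; columns are conditions, Pthrp-/- left of Pthrp+/+). Cox4i2, Cox6a2 and Cox7a1 are red in Pthrp+/+ TOs at 1g and Cox6b2 is blue there, while most other rows stay pale.

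The study exposed TOs to 0g to ask which genes respond to simulated microgravity. In untreated Pthrp+/+ TOs 5 of 83 members were higher and 4 lower at 0g (limma, Benjamini-Hochberg adjusted p under 0.05), which is 10.8% of the members beside 26.4% of all detected genes (13% higher and 13.4% lower). The 4 that fell were Cox4i2, Cox7a1, Ndufv3 and Cox7a2l, and the 5 that rose were Cox6b2, Ndufaf3, Sdhaf1, Ndufa4 and Ndufaf5. Ndufaf5 lay just under the threshold (limma, adjusted p = 0.0487), and its second probe did not pass (adjusted p = 0.607). By complex the counts were 3 higher and 1 lower in complex I (median fold change 0.12), 1 and 0 in complex II (0.20), 0 in complexes III (0.07) and V (0.05), and 1 and 3 in complex IV (-0.00), with a median of 0.04 over all genes. Relative to all genes, the median of complex III was 0.04 and that of complex IV -0.04, against 0.12 and 0.02 with the authors' values. Of the 9 assembly factors 3 rose and 0 fell, and of the 72 subunits 2 rose and 3 fell. The split of 5 higher to 4 lower became 4 to 5 with cyclic loess in place of quantile normalization and 8 to 4 with no background correction or with the authors' normalized values. Without untreated Pthrp+/+ 1g replicate 1 the count was 5 members. In treated Pthrp+/+ TOs 1 member was higher and 3 were lower at 0g (4.82%, beside 7.88% of all genes, 3.4% higher and 4.47% lower; 3 and 3 with the authors' values), and without any 1 of their 4 arrays the count was 2. In Pthrp-/- TOs 1 member was higher and 0 lower at 0g, both untreated (Cox6b2; 9.31% of all genes, 5.26% higher and 4.05% lower) and treated (Sdhaf4; 8.78% of all genes, 5.2% higher and 3.57% lower). With the authors' values these were 1 higher and 3 lower (1 and 2 with no background correction) in untreated and 3 higher and 2 lower in treated Pthrp-/- TOs. The untreated count was 9 without Pthrp-/- 0g untreated replicate 2 and 0 without any 1 of the other 3 arrays, and the treated count was 0 without any 1 of its own 4 arrays and 2 without either untreated Pthrp-/- 0g array.

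The study used Pthrp ablation to ask what the loss of the whole protein does at equal gravity. At 1g without treatment 31 of 83 members were higher and 6 lower in Pthrp-/- than in Pthrp+/+ TOs (44.6%, beside 52.5% of all genes, 30.5% higher and 22% lower). Complex I had 15 higher and 2 lower (median fold change 0.27), complex II 3 and 0 (0.26), complex III 3 and 0 (0.08), complex IV 3 and 4 (0.14) and complex V 7 and 0 (0.22), with a median of 0.12 over all genes. The assembly factors had 5 higher and 0 lower (median 0.49), and the subunits 26 and 5 (0.19). Relative to all genes, the medians of complexes I to V were 0.15, 0.15, -0.03, 0.03 and 0.11. With cyclic loess they were 0.16, 0.05, 0.06, 0.04 and 0.15, and with the authors' values 0.20, 0.10, 0.16, 0.13 and 0.21. The order of the complexes thus depended on the normalization. With cyclic loess, under which the median of all genes was -0.01, 19 members were higher and 8 lower. Without Pthrp-/- 1g untreated replicate 2 the count was 19 members, and without Pthrp+/+ 1g untreated replicate 1 it was 23. This comparison and that of gravity in untreated Pthrp+/+ TOs share both untreated Pthrp+/+ arrays at 1g, which had the lowest member levels, so the 2 sets of changes are not independent. Between treated TOs at 1g 14 members were higher and 9 lower (27.7%, beside 50.9% of all genes, 28.4% higher and 22.4% lower; 8 and 13 with cyclic loess), and the count was 13 without Pthrp+/+ 1g treated replicate 1 and 15 without either Pthrp-/- 1g treated array.

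**Figure D2:**
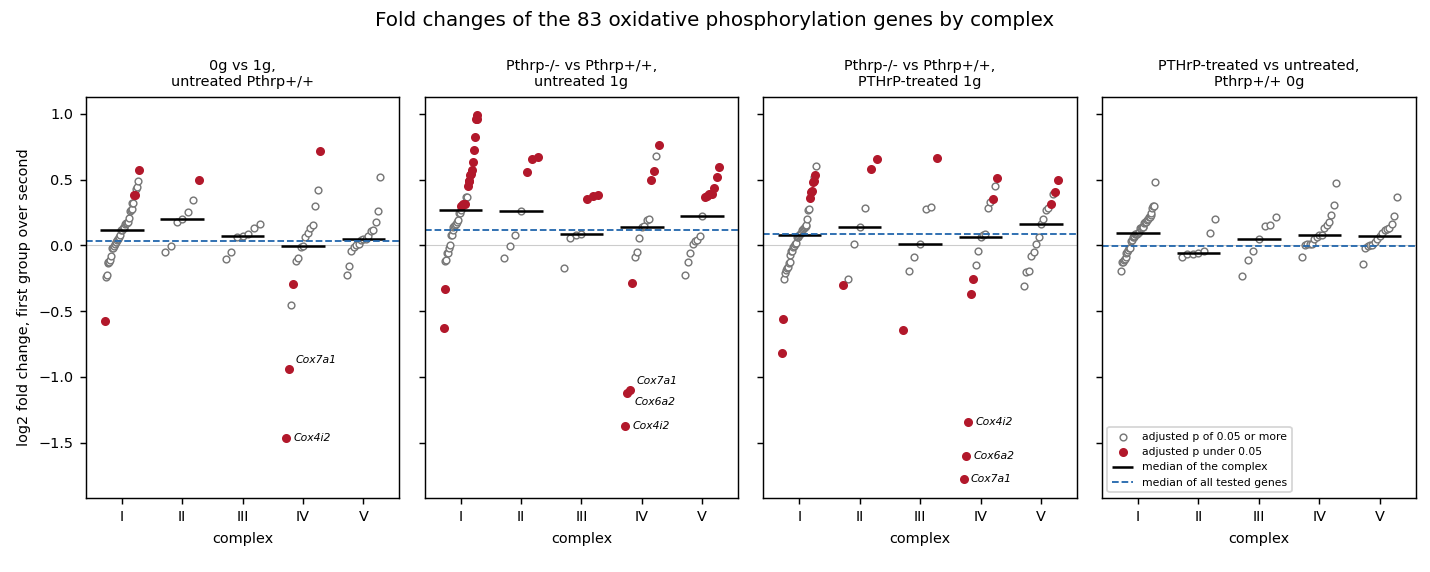
Log2 fold change of each member (circles, first group over second; filled, adjusted p under 0.05) by complex in 4 comparisons, with the median of the complex (black bar) and of all detected genes (dashed line). In untreated TOs at 1g most filled points of complexes I, II, III and V lie above 0 for Pthrp-/- over Pthrp+/+ TOs, the falls of over 1 are Cox4i2, Cox6a2 and Cox7a1, and the panel of PTHrP treatment at 0g has no filled point.

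At 0g fewer members differed between the genotypes. Without treatment 4 were higher and 2 lower in Pthrp-/- TOs (7.23%, beside 32.3% of all genes, 17.3% higher and 15% lower), namely Ndufa6 (0.51 ± 0.13, adjusted p = 0.0108), Cox6b2, Ndufb7 and Ndufs8 against Cox6a2 and Sdhaf4. Cox6b2 lay just under the threshold (limma, adjusted p = 0.0462). The split was 1 and 4 with cyclic loess, 6 and 5 with no background correction and 9 and 5 with the authors' values. With treatment 3 were higher (Sdhaf2, Sdhaf1 and Atp5d) and 2 lower (Cox6a2 and Cox7a1), which is 6.02% of the members beside 33.8% of all genes, 18.6% higher and 15.2% lower (1 and 2 with cyclic loess). Single arrays moved both counts. The untreated count was 2 without replicate 1 of either untreated 0g group, 18 without Pthrp-/- 0g untreated replicate 2, and 3 without either treated Pthrp-/- 0g or either treated Pthrp+/+ 1g array. The treated count was 2 or 3 without 1 of its own arrays and 8 without either untreated Pthrp-/- 0g array.

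The largest falls among the members called were those of Cox7a1, Cox6a2 and Cox4i2, isoforms of complex IV with a tissue preference. Cox4i2 had levels of 4.81 and 4.43 in untreated Pthrp+/+ TOs at 0g, against 6.13 and 6.03 at 1g. Both arrays at 0g were lower than both at 1g, and 1 of the 2 at 0g was still detected (log2 fold change -1.46 ± 0.19, adjusted p = 7.2e-05). In treated Pthrp+/+ TOs it was not detected at 0g (4.71 and 4.52, against 5.84 and 6.11 at 1g), so that only a bound can be given, and it was at least 2.15-fold lower (adjusted p = 0.000485). Such a bound sets the mean of the detected condition against the lowest level at which probes were detected on the other arrays, or the probe's own level where that is higher. Cox4i2 was likewise not detected in Pthrp-/- TOs at 1g (4.85 and 4.56 untreated, 4.66 and 4.61 treated) and was at least 2.15-fold lower than in untreated Pthrp+/+ TOs (adjusted p = 3.87e-05) and at least 2.09-fold lower than in treated ones (adjusted p = 4.97e-05). Its level was thus clear of background on both arrays only in the 2 conditions of Pthrp+/+ TOs at 1g. It was kept through these conditions, so its p-values are no separate support for the falls. Its ubiquitous counterpart Cox4i1 stayed between 12.87 and 13.55 on all 16 arrays and passed in no comparison (0.19 ± 0.14 in untreated Pthrp-/- over Pthrp+/+ TOs at 1g, adjusted p = 0.289).

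Cox7a1 had levels of 6.11 and 6.13 in untreated Pthrp+/+ TOs at 0g, against 6.88 and 7.24 at 1g. It was lower on both arrays (-0.94 ± 0.17, adjusted p = 0.00124), and in treated Pthrp+/+ TOs it was 6.49 and 6.70 at 0g, against 7.41 and 7.80 at 1g (-1.01 ± 0.17, adjusted p = 0.00241). In Pthrp-/- TOs at 1g it was 5.93 and 5.99 untreated, against 6.88 and 7.24 in Pthrp+/+ TOs (-1.10 ± 0.17, adjusted p = 0.000134). The difference between genotypes was larger in treated TOs at 1g, with 6.04 and 5.61 in Pthrp-/- against 7.41 and 7.80 in Pthrp+/+ TOs (-1.78 ± 0.17, adjusted p = 1.44e-06), though whether it was larger than in untreated TOs was not tested. At 0g it was -0.70 ± 0.17 in treated TOs (adjusted p = 0.00709) and -0.42 ± 0.17 in untreated TOs (adjusted p = 0.0827). The ubiquitous form Cox7a2 went the other way between the genotypes, with 8.11 and 8.19 in untreated Pthrp-/- TOs at 1g, against 7.12 and 7.65 in Pthrp+/+ TOs (0.76 ± 0.16, adjusted p = 0.00132). At 0g in untreated Pthrp+/+ TOs its value of 0.42 ± 0.16 did not pass (adjusted p = 0.0737). Cox7a2l, a factor that joins complexes III and IV in supercomplexes, was 11.29 and 11.38 in untreated Pthrp+/+ TOs at 0g, against 11.65 and 11.61 at 1g (-0.30 ± 0.09, adjusted p = 0.0312). It was also lower in untreated Pthrp-/- than in Pthrp+/+ TOs at 1g (11.35 and 11.34, against 11.65 and 11.61, -0.29 ± 0.09, adjusted p = 0.0188).

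Cox6a2 was lower in Pthrp-/- TOs in all 4 pairs of conditions. It was detected on 9 arrays and entered the test through Pthrp+/+ TOs, where it was high. Its p-values between the genotypes are therefore no separate support for the difference. Untreated Pthrp-/- TOs at 1g had 4.61 and 4.91, neither detected, against 5.79 and 5.98 in Pthrp+/+ TOs (at least 1.88-fold lower, adjusted p = 8.31e-05). Treated TOs at 1g had 4.90 and 4.35 in Pthrp-/-, 1 of the 2 detected, against 6.16 and 6.29 in Pthrp+/+ (-1.60 ± 0.17, adjusted p = 2.88e-06). At 0g Cox6a2 was at least 1.37-fold lower in untreated (adjusted p = 0.00208) and at least 1.45-fold lower in treated Pthrp-/- TOs (adjusted p = 0.000387). Within Pthrp+/+ TOs it fell at 0g with treatment (5.45 and 5.51, against 6.16 and 6.29 at 1g, -0.75 ± 0.17, adjusted p = 0.0146). Without treatment its value was -0.45 ± 0.17 (adjusted p = 0.0661), although the arrays did not overlap. Cox6a1 ran between 13.05 and 13.45 on the 16 arrays and passed in no comparison (0.20 ± 0.10 between the untreated genotypes at 1g, adjusted p = 0.123).

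Cox6b2 moved against the muscle and oxygen-regulated isoforms. It was 8.62 and 8.67 in untreated Pthrp+/+ TOs at 0g, against 7.87 and 8.00 at 1g (0.71 ± 0.14, adjusted p = 0.00216), and 8.54 and 8.58 in treated ones, against 7.89 and 8.08 (0.57 ± 0.14, adjusted p = 0.0253). In untreated Pthrp-/- TOs it also rose, with 9.30 and 8.80 at 0g, against 8.44 and 8.56 at 1g (0.55 ± 0.14, adjusted p = 0.0298). Between the untreated genotypes at 1g it was 8.44 and 8.56 in Pthrp-/-, against 7.87 and 8.00 in Pthrp+/+ TOs (0.57 ± 0.14, adjusted p = 0.00452). All 4 pairs were free of overlap. A second, dim probe of Cox6b2, detected on 8 arrays, did not follow it (-0.52 at 0g in untreated Pthrp+/+ TOs and -0.34 between the untreated genotypes at 1g, neither past the threshold). Cox6b1, the ubiquitous form, stayed between 12.84 and 13.29 (0.15 ± 0.13 at 0g in untreated Pthrp+/+ TOs, adjusted p = 0.47). Cox8a, the form other than muscle, was 13.03 and 13.09 in untreated Pthrp-/- TOs at 1g, against 12.43 and 12.69 in Pthrp+/+ TOs (0.50 ± 0.12, adjusted p = 0.00445). The muscle form Cox8b was not detected. Cox5a, a subunit with a single form, had 0.14 between the untreated genotypes at 1g, which did not pass, and passed at 0.35 between the treated ones.

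**Figure D3:**
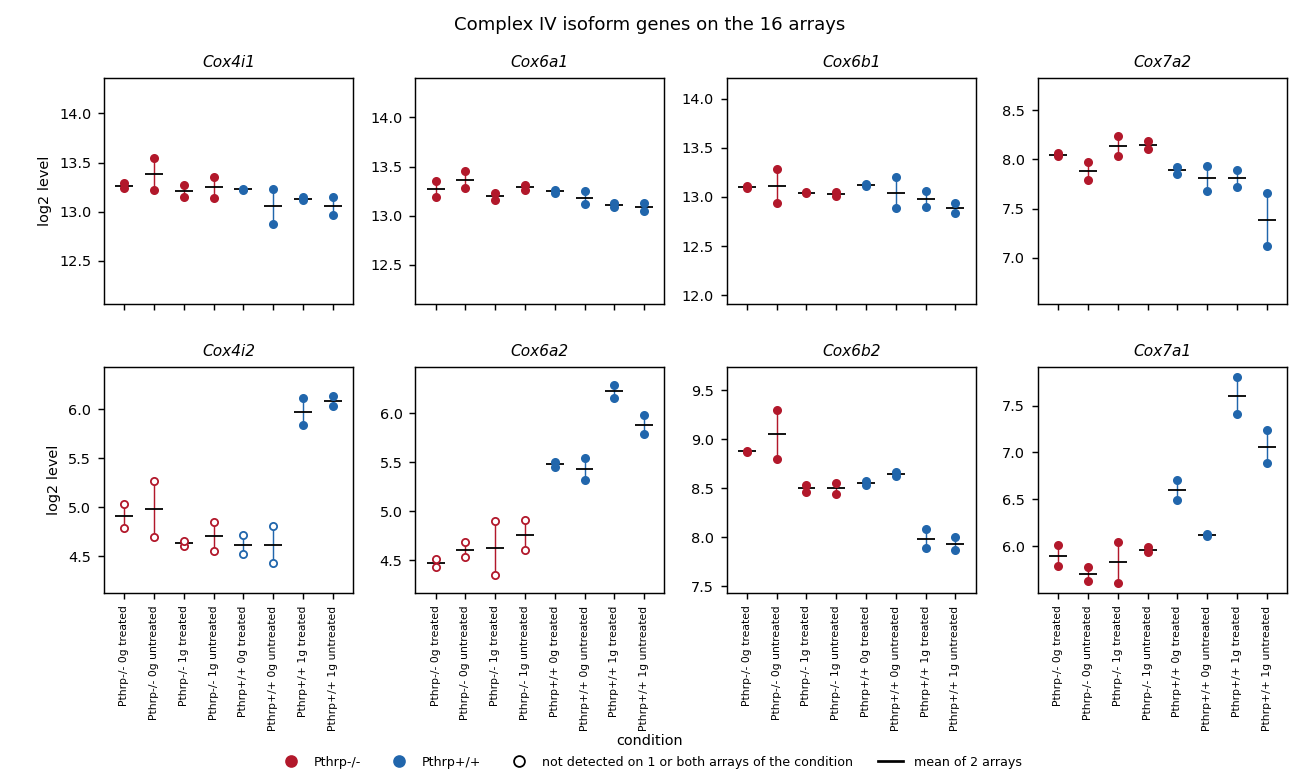
Log2 level of 8 isoform genes of complex IV on each array (circles, open where the probe was not detected on 1 or both arrays of the condition; black bars, means of 2 arrays; Pthrp-/- red and left, Pthrp+/+ blue). The upper panels hold the widely expressed forms, and the lower panels show Cox4i2, Cox6a2 and Cox7a1 highest and Cox6b2 lowest in Pthrp+/+ TOs at 1g.

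Levels of other genes also differed between these conditions, not all in the direction of these isoforms. The summed level of 8 striated muscle markers was 909.8 to 918.4 in untreated Pthrp-/- TOs at 1g, 1159 to 1252 in untreated Pthrp+/+ TOs at 0g and 815.6 to 820.3 in untreated Pthrp+/+ TOs at 1g. The markers of this list did not move as one. Desmin (Des) had log2 fold changes of 1.89 between the untreated genotypes at 1g and 1.80 at 0g in untreated Pthrp+/+ TOs, whereas the fast skeletal troponin gene Tnni2 had -2.62 and -0.83, the direction of Cox6a2 and Cox7a1 (all 4 called). The sum of 4 adipocyte markers was 2929 to 3157, 11870 to 12170 and 18050 to 19030 in the same order. Most of it was Lpl, the lipoprotein lipase (14.12 in untreated Pthrp+/+ TOs at 1g, on the log2 scale), while the lipid droplet protein gene Plin4 was higher in the same 2 comparisons (3.60 and 0.80). For 16 genes known to be induced by hypoxia it was 21190 to 21980, 19770 to 22120 and 40060 to 41270, and for the 18 macrophage markers 729.8 to 740.6, 58570 to 59660 and 95600 to 97540. Of these 3 conditions, untreated Pthrp+/+ TOs at 1g had the highest adipocyte, hypoxia and macrophage sums, and the hypoxia sum was higher still in treated Pthrp+/+ TOs at 1g (43300 to 47660). Their part in the isoform values was not tested.

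The regions upstream of 2 isoform pairs that diverged are given here, since the genes of a pair share a function and not a pattern. RefSeq promoters (build GRCm38.p6, the 250 bases before the annotated start) were found for 71 of the 83 members. Capitals mark matches on either strand to the CCAAT box (CCAAT or ATTGG) and to the core of ETS family factors (CCGGAA or TTCCGG).
Cox7a1 promoter, chr7:30183921-30184170, plus strand: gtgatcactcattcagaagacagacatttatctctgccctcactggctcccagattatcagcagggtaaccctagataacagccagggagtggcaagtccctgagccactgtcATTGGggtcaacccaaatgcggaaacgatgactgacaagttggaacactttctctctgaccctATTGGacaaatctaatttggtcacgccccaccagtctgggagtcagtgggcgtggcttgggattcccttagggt
Cox7a2 promoter, chr9:79759854-79760103, minus strand: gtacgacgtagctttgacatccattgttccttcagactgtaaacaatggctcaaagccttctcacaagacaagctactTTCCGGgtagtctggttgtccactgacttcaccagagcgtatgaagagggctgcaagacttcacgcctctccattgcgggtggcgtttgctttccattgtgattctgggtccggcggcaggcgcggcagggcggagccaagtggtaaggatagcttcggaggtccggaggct
Cox6b2 promoter, chr7:4753095-4753344, minus strand: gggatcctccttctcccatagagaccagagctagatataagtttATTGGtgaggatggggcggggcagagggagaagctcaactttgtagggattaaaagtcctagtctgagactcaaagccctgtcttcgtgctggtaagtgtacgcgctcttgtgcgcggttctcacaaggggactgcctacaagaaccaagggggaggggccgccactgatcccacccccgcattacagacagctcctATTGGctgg
Cox6b1 promoter, chr7:30626115-30626364, minus strand: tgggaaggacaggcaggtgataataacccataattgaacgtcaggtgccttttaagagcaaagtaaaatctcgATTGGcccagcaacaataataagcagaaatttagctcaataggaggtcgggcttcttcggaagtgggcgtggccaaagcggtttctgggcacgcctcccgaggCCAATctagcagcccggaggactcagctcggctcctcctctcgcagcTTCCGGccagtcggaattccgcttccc
The 2 tissue-preferring genes had fewer CpG dinucleotides in this window (4 in Cox7a1 and 8 in Cox6b2) than the ubiquitous ones (14 in Cox7a2 and 14 in Cox6b1). A match to the ETS core was present in Cox7a2 and in Cox6b1 and in neither of the other two. Over the 71 members the ETS core was found in 31% of promoters, beside 12% of all 32851, and the NRF1 core TGCGCA, a palindrome, in 21.1%, beside 6.43%. CCAAT boxes were found in 42.3% (33.8% of all), TATAAA in 7.04% (12.4%), the hypoxia core ACGTG in 19.7% (16.6%) and AAGATGG, the core of YY1, in 0% (4.49%). Each motif was searched on both strands of this window only, so sites at or after the annotated start were not counted. Median GC content was 57.2% for the members and 52.4% for all promoters. A match describes these letters and says nothing of a bound factor.

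In complex I the fall of Ndufv3, an accessory subunit of the flavoprotein that takes electrons from NADH, was the largest. Its levels were 11.68 and 12.10 in untreated Pthrp+/+ TOs at 0g, against 12.39 and 12.54 at 1g (-0.57 ± 0.14, adjusted p = 0.00822). In untreated Pthrp-/- TOs at 1g they were 11.88 and 11.80, against 12.39 and 12.54 in Pthrp+/+ TOs (-0.63 ± 0.14, adjusted p = 0.00207), and in treated TOs the difference was -0.82 ± 0.14 (adjusted p = 0.00027). A second bright probe of Ndufv3 gave -0.58 at 0g and -0.67 between the untreated genotypes, and a dim probe -0.26 and -0.09. Ndufv1, the subunit that binds NADH, was 12.28 and 12.28 in untreated Pthrp-/- TOs at 1g, against 12.16 and 12.02 in Pthrp+/+ TOs (0.19, adjusted p = 0.208), and Ndufs7, which carries the last iron-sulfur cluster, had 0.14 (adjusted p = 0.293). Neither passed the threshold. In treated TOs at 1g Ndufs7 did pass (0.40 ± 0.10, adjusted p = 0.00532).

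Between the untreated genotypes at 1g 15 of the 39 complex I members were higher and 2 lower in Pthrp-/- TOs, beside 30.5% and 22% of all genes. Most of these were accessory subunits, as are most of the 39. Ndufb10 was 8.13 and 8.34 in Pthrp-/- TOs, against 7.27 and 7.23 in Pthrp+/+ TOs (0.99 ± 0.22, adjusted p = 0.00183), and Ndufb2 was 8.17 and 8.48, against 7.09 and 7.62 (0.96 ± 0.20, adjusted p = 0.0015). Ndufaf3, an early assembly factor, was 6.80 and 6.99, against 5.75 and 6.12 (0.96 ± 0.14, adjusted p = 7e-05). All 3 had both Pthrp-/- arrays above both Pthrp+/+ arrays. Ndufaf3 also rose at 0g in untreated Pthrp+/+ TOs (6.52 and 6.50, against 5.75 and 6.12 at 1g, 0.57 ± 0.14, adjusted p = 0.00862). Ndufs8, a core subunit with 2 iron-sulfur clusters, was 11.07 and 11.19 in untreated Pthrp-/- TOs at 1g, against 10.58 and 10.69 in Pthrp+/+ TOs (0.49 ± 0.10, adjusted p = 0.00105). Ndufa5 was 1 of the 2 that fell (-0.33 ± 0.11, adjusted p = 0.0257), but its second, dimmer probe gave 0.31 without passing. Of the 14 members with several probes, 4 had probes of unlike sign in this comparison.

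Ndufa4 is counted here with complex I by its name, although the protein is now known as a part of complex IV. It had 12.52 and 12.61 in untreated Pthrp+/+ TOs at 0g, against 12.16 and 12.21 at 1g (0.38 ± 0.10, adjusted p = 0.0102). Untreated Pthrp-/- TOs at 1g had 12.76 and 12.76, against the same 12.16 and 12.21 in Pthrp+/+ TOs (0.58 ± 0.10, adjusted p = 0.000222). Untreated Pthrp+/+ TOs at 1g were thus below both other conditions on both arrays. In treated TOs neither difference passed (0.31 ± 0.10 at 0g in Pthrp+/+ TOs, adjusted p = 0.072, and 0.20 ± 0.10 between the genotypes at 1g, adjusted p = 0.0971).

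In complex II the members that passed between the untreated genotypes at 1g were 3 of the 4 assembly factors and 0 of the 3 subunits measured. Over all genes 52.5% passed. Relative to all genes, the median of complex II in this comparison was 0.15 over its 7 members and -0.04 over the 3 subunits alone. At 0g in untreated Pthrp+/+ TOs these medians were 0.16 and -0.04. Whether the classes differed was not tested, and the catalytic subunit gene Sdha is not analysed here. Sdhaf1, which helps to load the iron-sulfur clusters of Sdhb, was 8.80 and 8.76 in untreated Pthrp+/+ TOs at 0g, against 8.23 and 8.33 at 1g (0.50 ± 0.11, adjusted p = 0.00396). In untreated Pthrp-/- TOs at 1g it was 8.88 and 9.01, against 8.23 and 8.33 in Pthrp+/+ TOs (0.67 ± 0.11, adjusted p = 0.000173). Both Pthrp-/- arrays at 1g and both Pthrp+/+ arrays at 0g lay above the Pthrp+/+ arrays at 1g. Sdhaf2, which adds the flavin to the catalytic subunit, was higher in Pthrp-/- TOs at 1g untreated (8.71 and 8.91, against 8.19 and 8.31 in Pthrp+/+ TOs, 0.56 ± 0.10, adjusted p = 0.000527), at 1g treated (0.65 ± 0.10, adjusted p = 0.000147) and at 0g treated (0.49 ± 0.10, adjusted p = 0.00233). Sdhaf3 was 8.24 and 8.23 in untreated Pthrp-/- TOs at 1g, against 7.46 and 7.70 in Pthrp+/+ TOs (0.65 ± 0.14, adjusted p = 0.00167). Sdhaf4 was the exception, at -0.10 in that comparison (adjusted p = 0.435). The iron-sulfur subunit Sdhb had 10.07 and 10.29 in untreated Pthrp-/- TOs at 1g and 10.15 and 10.22 in Pthrp+/+ TOs, arrays that overlap, and it lay between 9.89 and 10.36 on all 16.

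In complex III the core protein Uqcrc1 was higher in Pthrp-/- TOs at 1g, with 10.99 and 11.09 untreated, against 10.72 and 10.67 in Pthrp+/+ TOs (0.35 ± 0.10, adjusted p = 0.0123), and with 11.29 and 11.24 treated, against 10.55 and 10.66 (0.66 ± 0.10, adjusted p = 0.000124). Neither pair overlapped. Uqcrb, the subunit near the ubiquinone site, was the member of complex III that fell in treated Pthrp-/- TOs at 1g (9.78 and 10.07, against 10.54 and 10.60 in Pthrp+/+ TOs, -0.64 ± 0.15, adjusted p = 0.00271), and untreated TOs gave -0.17 (adjusted p = 0.359). Uqcr11 was higher in untreated Pthrp-/- TOs at 1g (0.38, adjusted p = 0.0153), and Uqcr10 was so on both of its probes (0.38 and 0.41). At 0g in untreated Pthrp+/+ TOs the highest value of complex III was that of Uqcrc2, at 0.16 ± 0.10 (adjusted p = 0.296). The Rieske iron-sulfur protein gene Uqcrfs1 was near background on this array, and its level cannot be read.

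In complex V 7 of 15 members were higher and 0 lower in untreated Pthrp-/- TOs at 1g. This is 46.7% called, beside 52.5% of all genes (30.5% higher and 22% lower). The catalytic subunit gene Atp5b was 14.78 and 14.89 in Pthrp-/- TOs, against 14.46 and 14.45 in Pthrp+/+ TOs (0.38 ± 0.10, adjusted p = 0.00657), and treated TOs gave 0.32 ± 0.10 (adjusted p = 0.0183). Atp5d, of the central stalk, was 11.03 and 11.18, against 10.59 and 10.57 (0.52 ± 0.10, adjusted p = 0.00081), and again higher in treated TOs (0.50 ± 0.10, adjusted p = 0.00114). The largest rise was that of Atp5e, also of the stalk (0.60 ± 0.19, adjusted p = 0.0172), and its value at 0g in untreated Pthrp+/+ TOs, 0.52 ± 0.19, did not pass (adjusted p = 0.0609). The 3 genes of subunit c, which encode the same mature protein, differed. Atp5g1 was 12.61 and 12.52 in untreated Pthrp-/- TOs at 1g, against 12.17 and 12.08 in Pthrp+/+ TOs (0.44 ± 0.16, adjusted p = 0.0329), Atp5g2 had -0.22 (adjusted p = 0.105) and Atp5g3 0.04 (adjusted p = 0.793), though a difference between the 3 was not tested. Atp5a1, the other subunit of the catalytic ring, was 8.83 and 8.68 in untreated Pthrp+/+ TOs at 0g, against 8.76 and 9.21 at 1g, with overlap (-0.23 ± 0.23, adjusted p = 0.548).

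**Figure D4:**
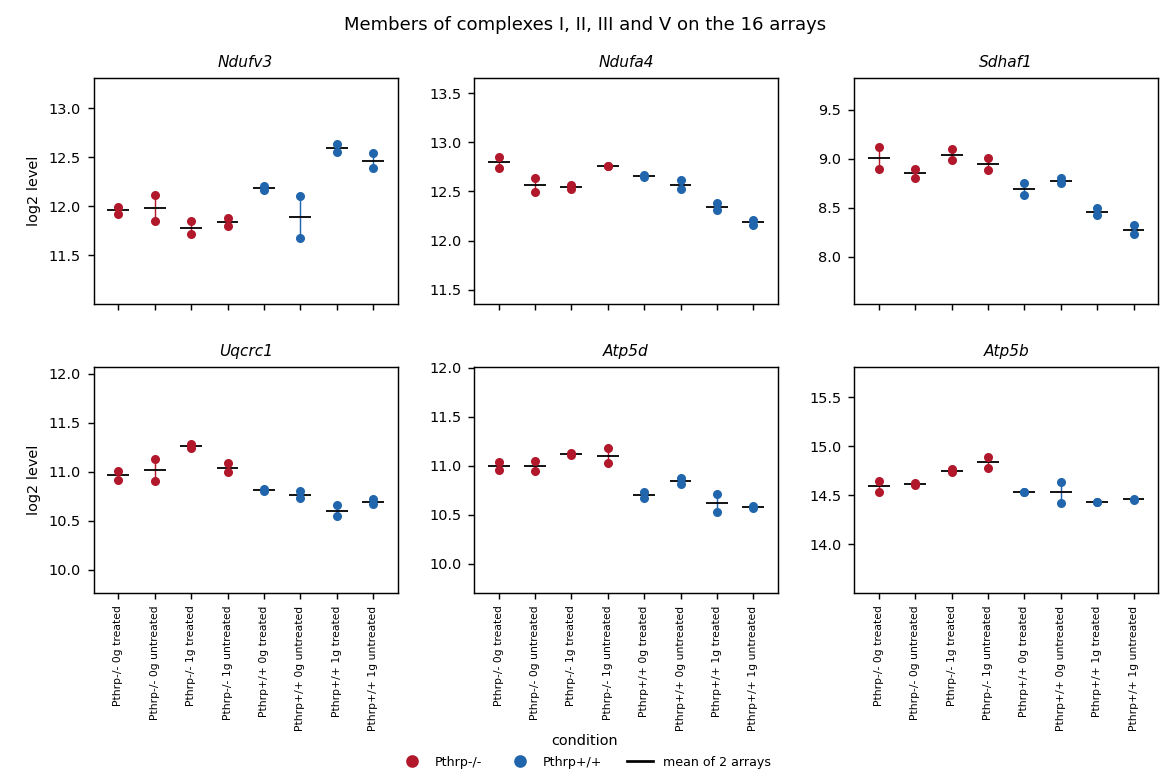
Log2 level of 6 members of complexes I, II, III and V on each array (circles; black bars, means of 2 arrays; Pthrp-/- red and left, Pthrp+/+ blue; every vertical axis spans the same number of log2 units). Ndufv3 is highest in Pthrp+/+ TOs at 1g, whereas Ndufa4 and Sdhaf1 are lowest there.

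Treatment with PTHrP1-36 was included to ask whether the peptide reverses the changes of 0g or ablation. No member passed in any of the 4 comparisons of treated with untreated TOs (limma, 0 of 83 in Pthrp-/- TOs at 0g and at 1g and in Pthrp+/+ TOs at 0g and at 1g, beside 2.15%, 3.25%, 8.03% and 0.719% of all genes). At an unadjusted p under 0.05 there were 7, 7, 7 and 6 members in the same order, limma with a trend and robust estimation called 0, 0, 2 and 1, the authors' normalized values gave 1, 1, 4 and 1, and the Wright and Simon model of the methods 0 in each. The count in Pthrp-/- TOs at 0g was 9 without Pthrp-/- 0g untreated replicate 2. In Pthrp+/+ TOs at 0g it was 3 without Pthrp+/+ 0g untreated replicate 2 and 1 without either untreated Pthrp-/- 0g array. In these Pthrp+/+ TOs at 0g the median fold change was 0.09 in complex I, -0.06 in complex II, 0.05 in complex III, 0.08 in complex IV and 0.07 in complex V, beside -0.01 over all genes, and 60 of the 83 values were positive. All 83 come from the same 4 arrays, so their signs are not separate observations. The centred member medians of these arrays were -0.10 and 0.01 untreated and 0.03 and 0.03 treated. Values ran between -0.20 (Ndufb11, a dim probe not detected on 1 of the 4 arrays) and 0.48 (Ndufb9) in complex I, -0.09 (Sdhaf1) and 0.20 (Sdhb) in complex II, up to 0.21 (Uqcrb) in complex III, whose lowest value was that of Uqcrfs1, near background, -0.09 (Cox6b2) and 0.48 (Cox7a1) in complex IV, and -0.14 (Atp5d) and 0.37 (Atp5a1) in complex V. The highest were Ndufb9, an accessory subunit of complex I (0.48, adjusted p = 0.16), and Cox7a1, with 6.49 and 6.70 treated, against 6.11 and 6.13 untreated (0.48 ± 0.17, adjusted p = 0.122). Cox7a1 did not overlap between the arrays and missed the threshold, and in Pthrp+/+ TOs at 1g it had 0.54 ± 0.17 (adjusted p = 0.233). For Cox7a2l, with 11.68 and 11.60 treated and 11.29 and 11.38 untreated at 0g, the adjusted p was 0.0649 (0.30 ± 0.09).

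Whether gravity acted alike in the 2 genotypes was tested by their interaction, the 0g fold change in Pthrp-/- TOs minus that in Pthrp+/+ TOs. In untreated TOs 3 members had a higher and 10 a lower fold change in Pthrp-/- TOs (15.7%, beside 25.8% of all genes, 12.9% in each direction; 4 and 5 with cyclic loess), and in treated TOs 2 and 1 (3.61%, beside 12.1%, 6.88% higher and 5.17% lower; 4 and 4 with the authors' values). Cox4i2 is among those counted in both, but it was not detected in Pthrp-/- TOs at 1g, so a fall at 0g could not have been measured there, and its interaction restates the fall in Pthrp+/+ TOs and shows no difference in response between the genotypes. Cox7a1 passed in treated TOs (1.08 ± 0.24, adjusted p = 0.0112), with 5.78 and 6.01 in Pthrp-/- TOs at 0g, against 6.04 and 5.61 at 1g, beside the fall of 1.01 in Pthrp+/+ TOs. For Ndufa4 the untreated values were -0.19 ± 0.10 in Pthrp-/- and 0.38 ± 0.10 in Pthrp+/+ TOs (interaction -0.58 ± 0.14, adjusted p = 0.00727). The untreated count fell to 2 without Pthrp-/- 1g untreated replicate 2, 5 without Pthrp+/+ 1g untreated replicate 1, 6 without Pthrp-/- 0g untreated replicate 1 and 8 without Pthrp+/+ 0g untreated replicate 2. The treated count was 1 without Pthrp+/+ 0g treated replicate 1, Pthrp+/+ 1g treated replicate 2, Pthrp-/- 0g treated replicate 2 or Pthrp-/- 1g treated replicate 2, and 5 without either untreated Pthrp+/+ 0g array.

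Genes that work beside the complexes were read from 18 gene lists. In untreated Pthrp-/- over Pthrp+/+ TOs at 1g, 17 of 27 assembly factors outside the name rule were higher and 3 lower, beside 30.5% and 22% of all genes (Timmdc1 for complex I at 1.01, Surf1 for complex IV at 0.83, Tmem70 for complex V at 0.90). In the same comparison 5 of 8 enzymes of ubiquinone synthesis were higher and 0 lower (Coq3 at 0.58), 31 of 70 mitochondrial ribosomal proteins were higher and 2 lower (median 0.29), and 4 of 53 cytosolic ribosomal proteins were higher and 6 lower (median -0.06). Of 15 factors of mitochondrial transcription and biogenesis 6 were higher and 1 lower, among them the coactivator Ppargc1a (2.11) and the nuclear receptor Esrra (1.04). At 0g in untreated Pthrp+/+ TOs, beside 13% higher and 13.4% lower of all genes, the same lists had 6 higher and 1 lower, 0 and 0, 9 and 1, 3 and 1, and 2 and 0. The 2 comparisons share the untreated Pthrp+/+ arrays at 1g, so like counts in both are no independent support.

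The same 2 comparisons, with the same shares over all genes beside them, were read for glycolysis and the genes around it. Of 14 glycolytic enzymes 1 was higher and 9 were lower in untreated Pthrp-/- than in Pthrp+/+ TOs at 1g (median -0.40, the same with undetected genes at their bound), and 1 was higher and 9 were lower at 0g in untreated Pthrp+/+ TOs (median -0.55; aldolase Aldoc -1.99, phosphofructokinase Pfkl -1.82). Of 16 hypoxia-induced genes 1 was higher and 10 lower between the genotypes (median -0.90) and 0 higher and 14 lower at 0g (median -0.94; carbonic anhydrase Car9 -3.02). Pdk1, a kinase that inhibits pyruvate dehydrogenase, the enzyme of the mitochondrial matrix that turns pyruvate into acetyl-CoA for the tricarboxylic acid cycle, had log2 fold changes of -3.42 and -2.38 in the 2 comparisons. Among 11 enzymes of the tricarboxylic acid cycle 5 were higher and 1 lower between the genotypes (Idh3a, of the NAD-linked isocitrate dehydrogenase, 1.34) and 1 and 0 at 0g (Idh3a 0.58). Cycs, the cytochrome c that links complexes III and IV, was 0.96 higher in Pthrp-/- TOs.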

How the data were processed

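Labelled total RNA was measured on 16 Illumina Mouse Ref-8 arrays. The authors deposited bead-summarised intensities on a linear scale without normalization between arrays, a detection p-value for each intensity, and normalized log2 values made with lumi in FlexArray, whose rank correlation with the intensities was 1 on every array. A single gene symbol was found for 23978 of the 25697 probes (23962 through the gene number) and no symbol for 1719.

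Background was removed by neqc (limma 3.58.1 on R 4.3.3, detection p, offset 16), followed by quantile normalization and log2. Probes with a detection p under 0.05 on 2 or more arrays entered the test (15279 probes of 10438 genes), and each gene was represented by its brightest such probe. The linear model held the 8 condition means (lmFit, eBayes; 8 residual and 4.98 prior degrees of freedom) and gave 12 pairwise comparisons and 2 interactions, with Benjamini-Hochberg adjustment over all tested probes and a threshold of 0.05. The median residual SD was 0.107 over members and 0.142 over all genes. The number of arrays, 2 per condition, limits the precision. The model was tested on simulated data with known changes.

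The members and the lists were chosen with earlier results of these data known. Named genes were isoform sets, the 3 largest rises and 3 largest falls called per comparison, the extremes of each complex in 3 comparisons, the catalytic subunits, members called in both interactions and up to 4 genes per list. Ndufs8, Ndufa5, Ndufaf5, Sdhaf3, Cox5b, Sdhc, Uqcr10, the values of second probes and the interaction members beyond the largest were named after their values were seen. Promoters were taken from RefSeq (GRCm38.p6). The ablated gene is not analysed here. Alternatives changed the background correction, normalization, filter, probe choice, variance model, arrays in the fit, array weights and a replicate block, with the authors' normalized log2 values, the methods' fold thresholds and the Wright and Simon model beside them.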

Additional observations from a re-analysis of the deposited data

Results flagged for a closer look

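A gravity effect that differed between the genotypes, by the test of the interaction itself (0g fold change in Pthrp-/- minus that in Pthrp+/+ TOs, limma), was found in 13 members without treatment and 3 with it. These are 15.7% and 3.61% of the members, smaller shares than the 25.8% and 12.1% of all genes. In untreated TOs the value was 1.74 for Cox4i2, 0.72 for Ndufv3 and 0.40 for Cox7a2l. It was -0.97 for Ndufb2, -0.76 for Ndufab1, -0.76 for Ndufaf3, -0.69 for Cox7a2, -0.66 for Sdhaf3, -0.60 for Sdhaf1, -0.59 for Ndufa1, -0.58 for Ndufa4, -0.49 for Ndufa7 and -0.42 for Ndufa12. In treated TOs it was 1.64 for Cox4i2, 1.08 for Cox7a1 and -0.51 for Uqcrc1. Cox4i2 passed in both, but it was not detected in Pthrp-/- TOs at 1g, so a fall there could not have been measured and its values restate the fall in Pthrp+/+ TOs. These values depend on how the Pthrp-/- arrays are labelled for gravity, since their 0g fold changes ran opposite to those of Pthrp+/+ TOs across genes.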

How the results depend on the processing

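Of 102 pairs of member and comparison that were called, 39 stayed called in every refit that tested them and 0 changed sign. These refits include those without 1 array, but not the methods' fold thresholds, the choice of any probe or the subunits alone, and Cox4i2 was not tested under detection on at least 8 arrays. The values below are counts of members called, out of 83, that moved by over 1.5 times. With no background correction there were 3 at 0g in untreated Pthrp-/- TOs, 11 between the untreated genotypes at 0g, 1 for treatment of Pthrp+/+ TOs at 0g, 1 at 1g and 5 for the treated interaction. Cyclic loess gave 3 between the treated genotypes at 0g. The authors' normalized values gave 4 at 0g in untreated and 5 in treated Pthrp-/- TOs, 14 between the untreated genotypes at 0g, 35 between the treated genotypes at 1g, 4 and 1 for treatment of Pthrp+/+ TOs at 0g and 1g, 1 and 1 for treatment of Pthrp-/- TOs at 0g and 1g, and 8 for the treated interaction. Without a detection filter there were 2 at 0g in untreated Pthrp-/- TOs, and 1 for treatment of Pthrp+/+ TOs at 0g, as also with detection on at least 8 arrays or with any probe of a gene. A fit of only the groups compared gave 0 at 0g in untreated and 0 in treated Pthrp-/- TOs, 1 and 9 between the untreated and the treated genotypes at 0g, and 2 and 6 for the untreated and the treated interaction. Trend with robust estimation gave 16 at 0g in untreated Pthrp+/+ TOs, 4 and 3 in untreated and treated Pthrp-/- TOs, 15 and 9 between the untreated and the treated genotypes at 0g, 2 and 1 for treatment of Pthrp+/+ TOs at 0g and 1g, and 5 for the treated interaction. Array weights gave 8 at 0g in treated Pthrp+/+ TOs, 0 and 3 in untreated and treated Pthrp-/- TOs, 1 and 12 between the untreated and the treated genotypes at 0g, 35 between the treated genotypes at 1g, 2 for treatment of Pthrp+/+ TOs at 1g, and 3 and 7 for the untreated and the treated interaction. At the methods' fold thresholds with an unadjusted p there were 1 and 2 at 0g in untreated and treated Pthrp+/+ TOs, 0 and 0 in Pthrp-/- TOs, 3 and 0 between the untreated genotypes at 1g and 0g, 3 and 1 between the treated ones, 1 for treatment of Pthrp+/+ TOs at 1g, 1 for treatment of Pthrp-/- TOs at 0g and 1 for the untreated interaction. Among the 72 subunits alone there were 5 at 0g in untreated Pthrp+/+ TOs, 0 in treated Pthrp-/- TOs and 3 between the treated genotypes at 0g. In a fit that did not use the gravity labels of the Pthrp-/- arrays, added after seeing the data, 8 were called between the treated genotypes at 0g. The causes were not tested.

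Correlations of the deviations of same-numbered arrays ran from -0.32 to 0.22 over 28 pairs of conditions, with 7 over 0.1, and from -0.015 to 0.22 over the 12 pairs within a genotype, with 5 over 0.1 (median 0.089). Not every pair was over 0.1, so the numbers were not taken as pairs. With the replicate number as a block over all arrays the counts were 12 and 4 at 0g in untreated and treated Pthrp+/+ TOs, 1 and 1 in Pthrp-/- TOs, 39 and 6 between the untreated genotypes at 1g and 0g, 26 and 6 between the treated ones, 0 for each treatment comparison, and 15 and 4 for the interactions. A block within genotype gave 2 for treatment of Pthrp+/+ TOs at 0g, 0 and 0 at 0g in untreated and treated Pthrp-/- TOs and 5 for the treated interaction.

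Leaving out each array in turn gave 5 to 11 and 2 to 5 members at 0g in untreated and treated Pthrp+/+ TOs, and 0 to 9 and 0 to 2 in Pthrp-/- TOs. It gave 19 to 41 and 2 to 18 between the untreated genotypes at 1g and 0g, and 13 to 30 and 2 to 8 between the treated ones. For treatment the ranges were 0 to 3 and 0 to 0 in Pthrp+/+ TOs at 0g and 1g, and 0 to 9 and 0 to 0 in Pthrp-/- TOs, and for the interactions 2 to 18 untreated and 1 to 5 treated. An array left alone in its condition was assumed to vary like the others.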

Other observations

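Genes of pyruvate use and of traffic into the mitochondrion were measured beside the complexes. Of 8 genes of pyruvate use 3 were higher and 3 lower in untreated Pthrp-/- than in Pthrp+/+ TOs at 1g, beside 30.5% and 22% of all genes, among them the kinase Pdk4 (1.67) and the dehydrogenase subunit Dlat (0.89) against the phosphatase Pdp1 (-0.99). At 0g in untreated Pthrp+/+ TOs 2 were higher and 3 lower, beside 13% and 13.4% (Pdk4 0.68, Pdp1 -1.26). Of 13 genes of mitochondrial carriers and import 7 were higher and 2 lower between the untreated genotypes at 1g, with the import receptor Tomm70a at 1.04, the chaperonin Hspe1 at 0.88 and the ADP/ATP carrier Slc25a5 at -0.47, and 1 was higher and 0 lower at 0g (Hspe1 0.62). In a list of 6 genes around the electron carriers, which also holds Cyc1 and Coq10b, 2 were higher and 1 lower between the genotypes. At 0g 1 was higher and 1 lower. Coq10b was among the higher in both (1.24 and 0.60).

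Markers of cell types were read in the same 2 comparisons, untreated Pthrp-/- over Pthrp+/+ TOs at 1g and 0g over 1g in untreated Pthrp+/+ TOs. Over all genes 30.5% were higher and 22% lower in the first, and 13% and 13.4% in the second. Of 10 osteoblast markers 1 was higher and 6 lower between the genotypes, and 2 were higher and 3 lower at 0g. Alpl, the bone alkaline phosphatase, fell by 1.83 and by 1.09 on the log2 scale, and Col1a2, a chain of type I collagen, fell by 1.16 and by 0.95. Msx2 went the other way in both comparisons, at least 4.31-fold and at least 1.33-fold higher. It was not detected in untreated Pthrp+/+ TOs at 1g. Sp7 was lower between the genotypes (-0.60) and higher at 0g (0.47). All 18 macrophage markers were lower between the genotypes and 17 at 0g. For the smaller lists the counts of higher and lower genes were 2 and 2 of 8 striated muscle markers in both comparisons, 1 and 3 of 4 adipocyte markers in both, 3 and 1, then 0 and 1 of 6 osteoclast markers, 1 and 0, then 1 and 2 of 5 chondrocyte markers, and 1 and 1 of 3 endothelial markers in both.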
